A study of Mus musculus with 90 samples.

Results

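Growth hormone (GH) reaches the hepatocyte through its receptor, encoded by Ghr, which activates the kinase JAK2 and through it the transcription factors STAT5A and STAT5B. In liver these factors are known to drive the endocrine growth factor gene Igf1, its serum carrier subunit gene Igfals, and the feedback inhibitors Socs2 and Cish. Bcl6 encodes a repressor that can occupy STAT5 sites. In male rodents GH is secreted in pulses, and the pulse pattern is known to set the sex bias of many liver genes. The glucocorticoid receptor (GR, Nr3c1) is a known partner of STAT5 in the mouse liver. The genes described here were Ghr, Stat5a, Stat5b, Igf1, Igfals, Socs2, Cish and Bcl6, 8 of the 24308 gene symbols in the RNA table. They were chosen by name from their roles in GH signalling, and the RefSeq transcript with the highest mean RPKM over all libraries represented each gene.

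RNA was sequenced from livers of C57BL/6 mice accustomed to night-restricted feeding (NRF; by the study's methods C57BL/6N for wild-type and Nr3c1 fl/fl mice and C57BL/6J for the L-IRSdKO background), in 54 libraries that each came from a single mouse and formed 16 groups in 5 experiments. ZT counts hours from lights on, and ZT14-unfed and ZT14-fed livers were taken early in the night from mice denied or given the meal. In the NRF experiment, uninjected wild-type mice were taken at ZT10, ZT14-unfed and ZT14-fed, with 2 mice in each group and libraries made after ribosomal RNA depletion. All other libraries were made from poly(A) RNA. In the injected experiment, 5 groups of 4 wild-type mice were ZT14-unfed with vehicle (PBS), or ZT14-fed with PBS, with dexamethasone (dex, a synthetic glucocorticoid) at 1 mg/kg, with the insulin receptor antagonist S961, or with both agents. The L-GRKO experiment compared 4 and 4 ZT14-unfed Nr3c1 fl/fl mice that had received an adeno-associated virus carrying Cre (L-GRKO) or GFP (AAV-GFP) under the hepatocyte-active Tbg promoter. Thus both groups carried the floxed allele and a virus, and other liver cell types were not targeted. The L-IRSdKO experiment compared 4 and 4 mice with floxed Irs1 and Irs2, with or without Cre expressed from the albumin promoter. Both of these groups were fed and had received dex. The diet experiment held 3 mice in each of 4 groups, lean mice on chow and obese (DIO) mice after 10 weeks of high-fat diet, each ZT14-unfed and ZT14-fed, after 4 days of NRF. The sex of the animals is not in the labels, and in all 54 libraries the X-inactivation transcript Xist was at or below 0.111 RPKM while the Y-linked gene Ddx3y was at or above 13.2 RPKM.

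The conditional alleles checked against their labels as follows. Nr3c1 stood at 12.8, 14.5, 13.2 and 16.2 RPKM in the AAV-GFP livers and at 3.93, 4.23, 4.14 and 5.35 RPKM in the L-GRKO livers. Irs1 stood at 2.21, 4.70, 4.73 and 4.498 RPKM in the floxed controls and at 0.149, 0.155, 0.321 and 0.170 RPKM in the L-IRSdKO livers. Irs2 did not separate the groups, at 0.614, 1.63, 5.61 and 0.929 RPKM against 0.272, 1.00, 0.932 and 0.886 RPKM. Depth, read from the RPKM step that 1 read makes, had a median of 30.2 M (mega) reads per library in the NRF experiment, 10.7 M in the injected, 19.0 M in the L-GRKO, 3.8 M in the L-IRSdKO and 21.4 M in the diet experiment. For the L-IRSdKO libraries the study's own sequencing summary lists more reads than this estimate. Hepatocyte markers were expressed in every library, but their summed level was 2373 to 3040 RPKM in the L-IRSdKO experiment against 33771 or more elsewhere. Alb alone was 650 to 914 RPKM there and at least 18853 RPKM elsewhere. Levels were therefore compared within experiments.

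Libraries that stood apart were of 2 kinds. The fourth mouse of each injected group carried a later library number than the other 3 mice. In these later libraries Ghr was 126, 132, 153, 131 and 131 RPKM, below every earlier library of the same group except in the dex group. The first L-IRSdKO mouse had lost Irs1 like the other 3, yet had the highest Ghr, Igf1, Igfals and Bcl6 and the lowest Socs2 and Cish of its group. The calls of the 8 genes that rested on these libraries are given with and without them.

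The 8 genes spanned a wide range of levels per length of transcript. Ghr was the most abundant, with a median of 162 RPKM over the 54 libraries and a range from 70.5 to 252 RPKM. Igf1 followed at a median of 85.3 RPKM (43.1 to 130) and Igfals at 40.2 RPKM (7.70 to 87.4). Stat5b, the main liver STAT5, had a median of 7.44 RPKM (4.26 to 20.2) and Stat5a of 2.79 RPKM (0.965 to 6.02). Bcl6 (median 6.63 RPKM, 0.294 to 29.9), Socs2 (5.83 RPKM, 1.28 to 77.5) and Cish (5.14 RPKM, 0.597 to 42.1) had the widest ranges. Stat5a and Stat5b lie next to each other on chromosome 11 and share 608 of their 50-base stretches, 14.65% of those of Stat5a, so their counts could have been split between them. Of the 50-base stretches of Socs2, 6.15% are shared with the gene model Gm9847. Antisense gene models, Gm17040 and Gm17041, cover 4.07% and 7.46% of the Cish exon bases.

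**Figure D1:**
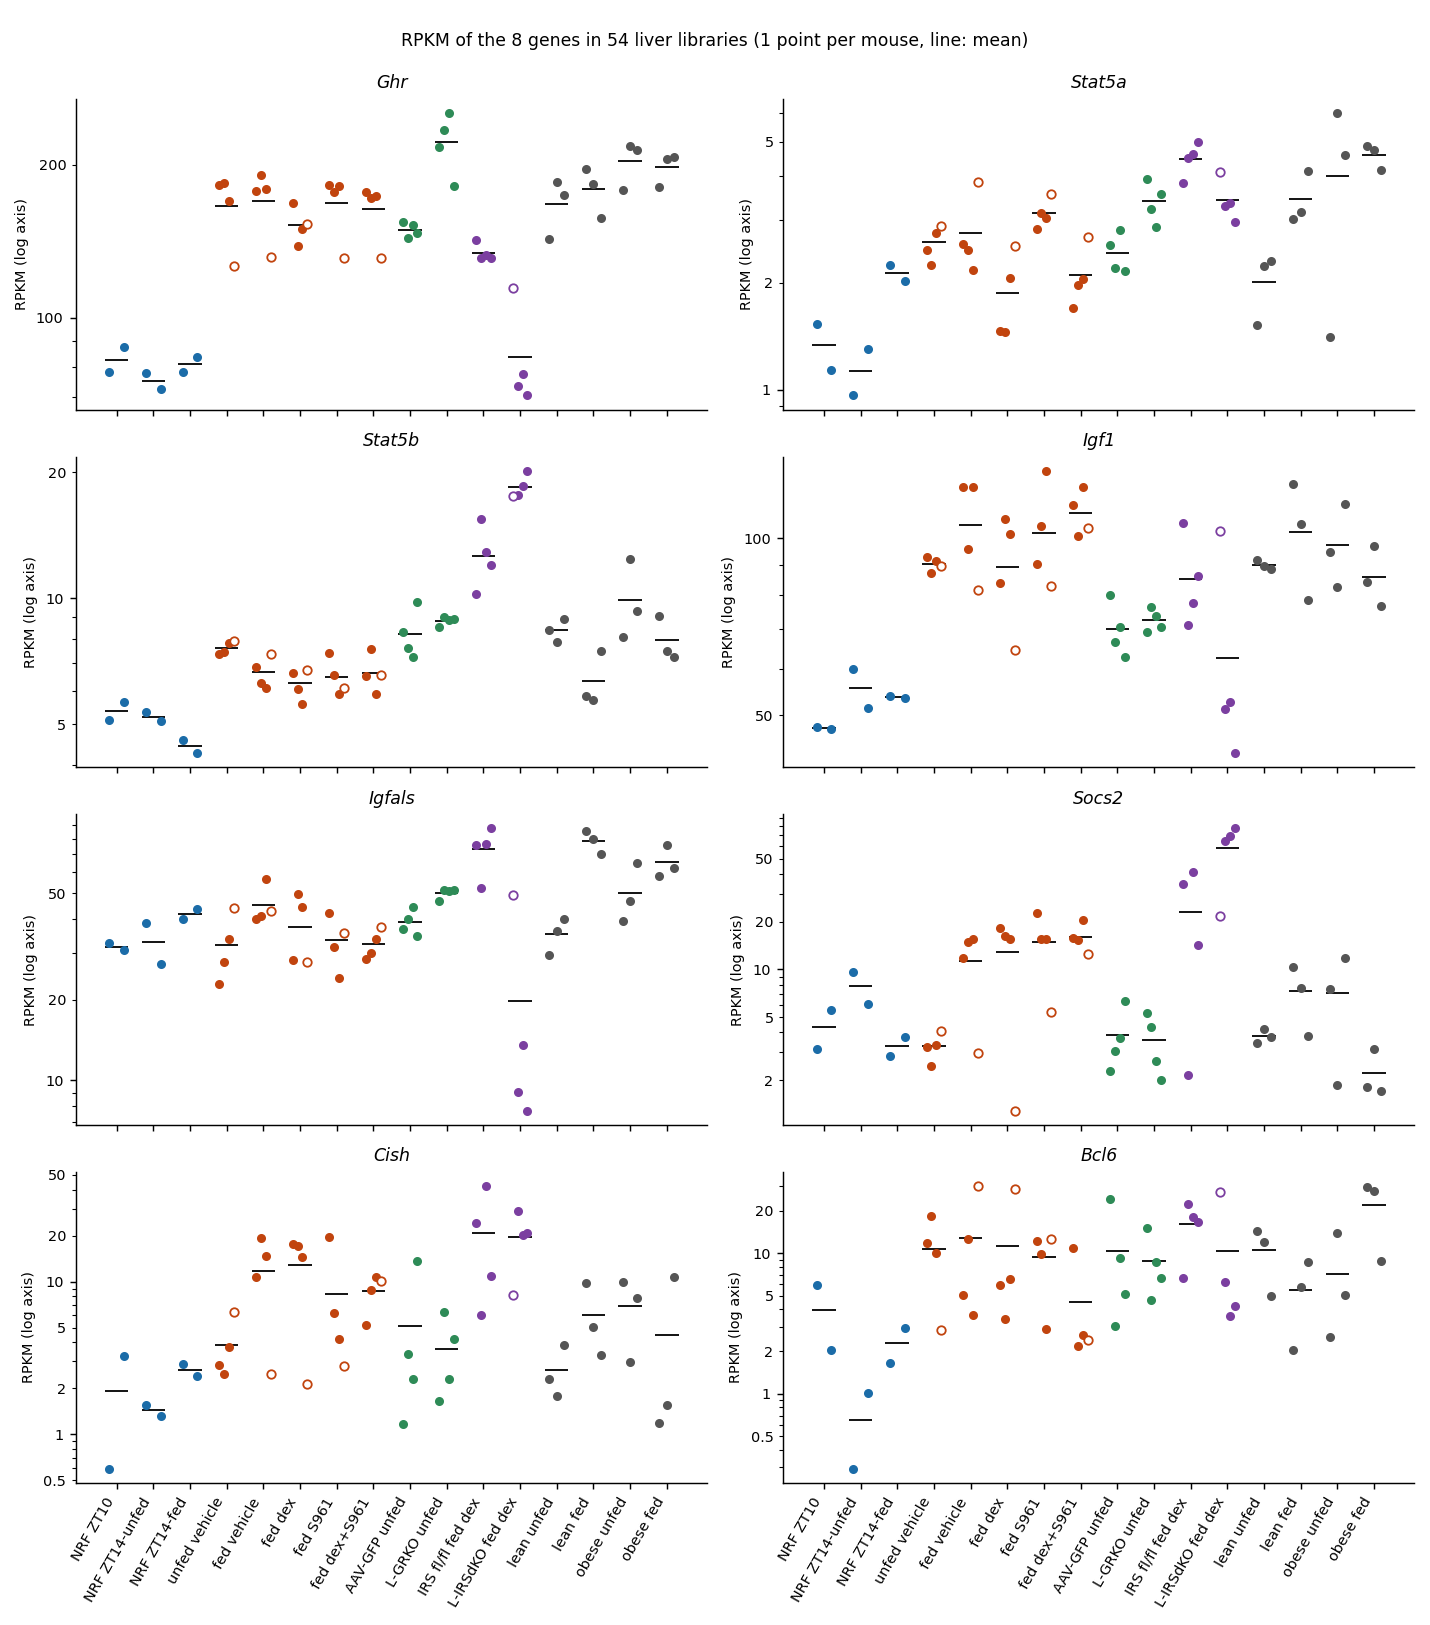
RPKM (log axis) of the 8 genes in each of the 54 libraries, 1 point per mouse, with the 16 groups along the x axis, a line at each group mean and a color for each experiment. Open points mark the later library series of the injected experiment and the first L-IRSdKO mouse. Ghr, Igf1 and Stat5b kept close within most groups, whereas Socs2, Cish and Bcl6 spread widely among mice of the same group.

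Next, the GR and FOXO1 binding sites near the genes were listed. FOXO1 is the transcription factor that insulin signaling excludes from the nucleus. The deposited lists held 10446 GR peaks and 8546 FOXO1 peaks from ZT14-unfed livers and 83592 DNase hypersensitive sites (DHSs), as positions in the mm9 build without scores. Within 50 kb of the gene start, Socs2 had 8 GR peaks, a number reached by 0.47% of 22225 genes. Ghr had 5 GR peaks (reached by 2.79% of genes), Igf1 had 4 (4.96%), Igfals had 3 (8.83%), Bcl6 had 2 (16.8%) and Cish had 1. Stat5a and Stat5b shared 3. Over all genes, 32.81% had at least 1 GR peak and 34.62% at least 1 FOXO1 peak in this window. Igf1 stood out for FOXO1, with 8 peaks (reached by 0.2% of genes), while Socs2 had 3 and the others 1 or 2. The 22225 genes were not limited to those expressed in liver, as the 8 genes are. The shares among expressed genes may be larger and were not computed. The 26 different GR peaks near the 8 genes overlapped a DHS in 20 cases and a FOXO1 peak in 12, against 81.6% and 48.8% of all GR peaks.

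**Figure D2:**
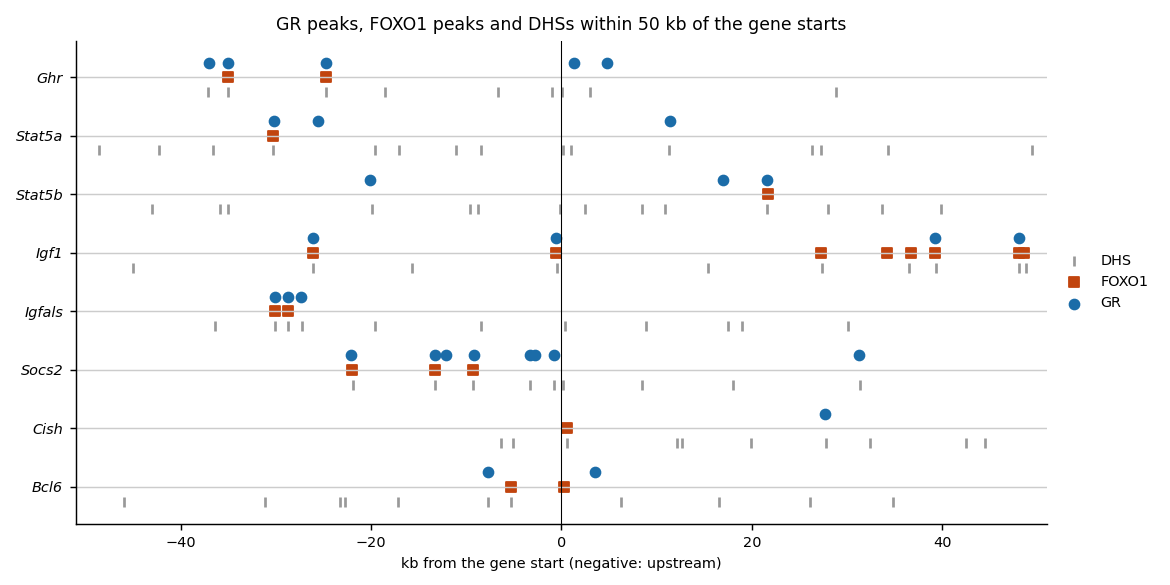
GR peaks (circles), FOXO1 peaks (squares) and DHSs (ticks) within 50 kb of the starts of the 8 genes, drawn by distance in kb with negative values upstream, 1 line per gene. The 8 GR peaks of Socs2 lie mostly upstream and the 8 FOXO1 peaks of Igf1 lie mostly in the gene, and Stat5a and Stat5b share their GR peaks.

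The sequence of the GR peaks was then searched for the STAT5 motif TTCNNNGAA and for ACANNNTGT, the core of the GR motif. Each motif equals its own reverse complement, so a match counts for both strands. In windows of 300 bases, 5 of the 26 GR peaks (19.2%) held TTCNNNGAA, against 13.3% of all GR peaks, and 6 (23.1%) held ACANNNTGT, against 23.6%. No window held both motifs. The windows with a STAT5 match were 3 of the 8 at Socs2, 1 at Bcl6 and the intronic peak of Stat5a. Shown here are the windows outside exons with a match upstream of Socs2 and Bcl6, where a STAT5 match lies inside a GR peak, and the promoter window of Igf1, where a GR and a FOXO1 peak coincide and neither motif occurred. They are given on the plus strand of mm9 with the STAT5 match in capitals, at chr10:94880486-94880785 (centre 821 bases upstream of the Socs2 start), chr10:94892927-94893226 (centre at -13262 from the Socs2 start, also a FOXO1 peak), chr16:23996529-23996828 (-7740 from the Bcl6 start) and chr10:87320321-87320620 (-540 from the Igf1 start).
Socs2 proximal: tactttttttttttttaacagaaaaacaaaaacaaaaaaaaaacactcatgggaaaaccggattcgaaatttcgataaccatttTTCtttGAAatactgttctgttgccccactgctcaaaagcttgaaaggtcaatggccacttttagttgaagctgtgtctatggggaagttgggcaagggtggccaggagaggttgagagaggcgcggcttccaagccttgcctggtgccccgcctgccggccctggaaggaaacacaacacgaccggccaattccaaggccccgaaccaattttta
Socs2 distal: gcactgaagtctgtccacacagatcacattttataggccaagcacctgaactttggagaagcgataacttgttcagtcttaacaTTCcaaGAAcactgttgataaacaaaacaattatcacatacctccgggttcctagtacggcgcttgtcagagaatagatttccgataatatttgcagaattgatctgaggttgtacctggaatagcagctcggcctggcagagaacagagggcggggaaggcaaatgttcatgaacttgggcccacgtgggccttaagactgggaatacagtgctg
Bcl6 upstream: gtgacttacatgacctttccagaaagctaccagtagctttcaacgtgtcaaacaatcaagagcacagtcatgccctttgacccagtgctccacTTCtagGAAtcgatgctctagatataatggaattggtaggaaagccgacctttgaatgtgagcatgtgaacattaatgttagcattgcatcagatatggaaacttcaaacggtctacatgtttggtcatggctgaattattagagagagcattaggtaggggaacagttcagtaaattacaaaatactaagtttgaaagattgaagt
Igf1 promoter: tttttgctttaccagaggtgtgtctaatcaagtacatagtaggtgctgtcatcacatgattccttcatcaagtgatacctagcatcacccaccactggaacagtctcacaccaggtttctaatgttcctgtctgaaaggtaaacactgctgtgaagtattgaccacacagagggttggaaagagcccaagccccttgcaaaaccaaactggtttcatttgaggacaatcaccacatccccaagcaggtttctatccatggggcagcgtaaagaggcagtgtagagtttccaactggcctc

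A search of the FOXO1 peaks, added after the data had been examined, gave TTCNNNGAA in 6 of the 19 windows near the genes (31.6%) against 12.4% of all FOXO1 peaks. The window 606 bases into Cish held 3 matches, a number that only 0.0702% of FOXO1 windows reached. The window 310 bases into Bcl6 held 4, and it was itself the only 1 of all FOXO1 windows to reach this number (0.0117%). In each, a pair of matches lies close together, at chr9:107198990-107199009 in Cish and chr16:23988701-23988724 in Bcl6 (mm9, plus strand, matches in capitals). Neither of these windows overlapped a GR peak, the FOXO1 peak of the Bcl6 window overlapped no DHS, and both pairs lie wholly in exons.
Cish pair: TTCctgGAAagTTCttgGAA
Bcl6 pair: TTCtaaGAAccccagTTCtaaGAA

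In L-GRKO livers, taken unfed at ZT14, Ghr and Igfals were called higher than in AAV-GFP livers, and none of the 8 genes was called lower. Differences were tested with limma on log2(RPKM + 0.5), with p-values adjusted over all genes tested, and called here at an adjusted p under 0.05. By this rule 2 of the 8 genes were called, where 6.68% of the 11646 genes tested were called. Ghr stood at 154, 143, 152 and 147 RPKM in AAV-GFP livers and at 217, 233, 252 and 182 RPKM in L-GRKO livers. Every L-GRKO mouse was above every control. The log2 fold change was 0.56 ± 0.11 (SE), a fold of 1.47, with an adjusted p of 0.0112. The 2 Ghr transcripts not used here stood at 104 ± 3.49 against 155 ± 18.9 RPKM and 107 ± 3.32 against 159 ± 19.2 RPKM (SD, n = 4). They belong to the same gene and come from the same libraries, so they are not independent of this call. In bulk liver, a change in the number of expressing cells and a change in RNA per cell cannot be told apart.

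Igfals stood at 36.8, 39.9, 44.6 and 34.8 RPKM in AAV-GFP livers and at 46.8, 51.3, 50.8 and 51.5 RPKM in L-GRKO livers. The groups did not overlap, and the log2 fold change was 0.36 ± 0.094 (SE), with an adjusted p of 0.0455. This call lay at the edge of the threshold. It was lost in 12 of 17 alternative fits, including the leaving out of any of 7 of the 8 mice, and with median-ratio scaling the log2 fold change was 0.26 with an adjusted p of 0.232. The Ghr call held in all 17, with adjusted p between 0.00414 and 0.0498.

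Stat5a was also higher in every L-GRKO mouse than in every control, without passing the threshold. Its levels were 2.55, 2.21, 2.81 and 2.16 RPKM against 3.92, 3.24, 2.87 and 3.55 RPKM, a log2 fold change of 0.41 ± 0.13 (SE) with an adjusted p of 0.0931. Stat5b, at 8.28, 7.61, 7.23 and 9.78 RPKM against 8.52, 9.04, 8.86 and 8.92 RPKM, overlapped between the groups. An exact permutation test of each gene (two-sided, 4 against 4) gave an unadjusted p of 0.0286, the smallest this design allows, for Ghr, Igfals and Stat5a. Adjusted over the 8 genes, the p of this test was 0.0762 for Ghr, Igfals and Stat5a alike, above the threshold used for calls. Of all genes tested, 12.8% had groups that did not overlap. After median-ratio scaling, 1 of the 8 genes reached the unadjusted p of 0.0286.

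The growth factor and the feedback genes did not pass in L-GRKO livers. Igf1 was 80.1, 66.7, 70.7 and 62.8 RPKM in controls and 69.2, 76.6, 73.8 and 70.7 RPKM in L-GRKO livers, and the 95% interval of its log2 fold change, -0.15 to 0.26, was narrow. Socs2, with its 8 GR peaks, was 2.27, 3.05, 3.69 and 6.32 RPKM against 5.32, 4.32, 2.64 and 2.02 RPKM, with an interval from -0.76 to 0.59. Cish was 1.17, 3.37, 2.31 and 13.7 RPKM against 1.65, 6.32, 2.29 and 4.20 RPKM, and Bcl6 24.3, 3.03, 9.19 and 5.11 RPKM against 15.0, 4.62, 8.72 and 6.70 RPKM. For Cish and Bcl6 the intervals ran from -1.37 to 1.16 and from -1.12 to 1.19, so a doubling or a halving was not detectable in either gene.

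Other genes of the pathway and genes with a sex bias in liver were then read in the same fit. Of 15 tested genes of GH receptor signalling, 1 was called. Prlr, the receptor for prolactin and a close relative of Ghr, rose from 15.0, 12.2, 18.8 and 10.7 RPKM to 50.4, 36.7, 39.8 and 32.1 RPKM, a log2 fold change of 1.47 ± 0.18 (SE) with an adjusted p of 0.00119. None of 4 other STAT genes and 2 genes of the IGF system passed. Among 8 liver factors linked to GH action, Cebpa rose by 0.61 on the log2 scale and Cebpb fell by 0.65. Of 12 tested genes with higher expression in male liver, Moxd1 (log2 fold change -3.60), Selenbp2 (-2.31), Cyp7b1 (-1.13) and C6 (-0.94) fell and Hsd3b5 (0.57) rose. Of 9 female-biased genes, Cyp17a1 (-2.14) and Cyp39a1 (-1.97) fell and none rose. The medians of these lists were -0.53 and 0.06, beside 0.08 over all genes. Among 6 GR target genes used as a check, 4 fell, led by Fkbp5 at -2.64. Summed Kupffer cell markers were 69.5 to 167 RPKM in controls and 76.7 to 137 RPKM in L-GRKO livers, and stellate cell markers 77.1 to 118 and 105 to 139 RPKM, with 1 of 6 called higher, and none of these 12 markers was listed at 0. Their part in the results was not tested.

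In L-IRSdKO livers, fed and given dex like their controls, Ghr and Igfals fell and Stat5b rose. These were 3 of the 8 genes, where 17.4% of the 12963 genes tested were called at an adjusted p under 0.05. Ghr was 142, 131, 133 and 131 RPKM in floxed controls and 114, 73.5, 77.6 and 70.5 RPKM in L-IRSdKO livers. The groups did not overlap, and the log2 fold change was -0.70 ± 0.14 (SE) with an adjusted p of 0.0128. Igfals was 75.9, 52.5, 76.6 and 87.4 RPKM against 49.1, 9.08, 13.6 and 7.70 RPKM, a log2 fold change of -2.24 ± 0.50 (SE) with an adjusted p of 0.0183. Stat5b was 10.2, 15.5, 12.9 and 11.999 RPKM against 17.6, 17.6, 18.5 and 20.2 RPKM, a log2 fold change of 0.54 ± 0.12 (SE) with an adjusted p of 0.0199. Stat5a had a fold change of the other sign, at 3.82, 4.51, 4.61 and 4.98 RPKM against 4.10, 3.29, 3.35 and 2.97 RPKM, and did not pass (log2 fold change -0.34, adjusted p = 0.116).

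The first L-IRSdKO mouse decided several of these calls. For Igf1 the controls were at 106, 71.3, 77.6 and 86.3 RPKM, and the L-IRSdKO mice at 103, 51.2, 52.6 and 43.1 RPKM, with the first mouse among the controls and the other 3 below them all. The log2 fold change of Igf1 was -0.52 with all mice (adjusted p = 0.186) and -0.79 ± 0.14 (SE) without the first (adjusted p = 0.00476). Bcl6 was 6.69, 22.5, 18.2 and 16.8 RPKM in controls and 27.4, 6.21, 3.59 and 4.21 RPKM in L-IRSdKO livers, and its log2 fold change moved from -0.97 (adjusted p = 0.298) to -1.59 ± 0.38 (SE, adjusted p = 0.0173) without that mouse. Thus 5 of the 8 genes passed without it, where 23.3% of all genes did. Leaving out any of the other L-IRSdKO mice left only the Ghr call, with Igfals at adjusted p of 0.0506 to 0.0549 and Stat5b at 0.0503 to 0.0632. Without the fourth control mouse, Stat5b was at an adjusted p of 0.0511.

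The feedback genes did not pass in this experiment. Socs2 was 34.8, 2.14, 41.1 and 14.3 RPKM in floxed controls and 21.6, 64.6, 69.2 and 77.5 RPKM in L-IRSdKO livers. The controls spread widely, and the log2 fold change of 1.77 ± 0.82 (SE) had an adjusted p of 0.169, or 2.19 and 0.0936 without the first L-IRSdKO mouse. Cish was 24.2, 6.06, 42.1 and 10.9 RPKM against 8.15, 29.0, 20.044 and 20.7 RPKM, and the groups overlapped. Sex-biased genes changed in this comparison. Of 12 tested male-biased genes 11 fell and none rose, led by Hsd3b5 (log2 fold change -4.12) and Elovl3 (-4.08), and the list median was -2.61, beside 0.03 over all genes. Of 12 tested female-biased genes 7 rose and none fell, among them Cyp2b9 (log2 fold change 6.32), with a list median of 2.01. Cux2, a repressor of male-biased genes that is typical of female liver, was 0.279, 0.106, 1.16 and 1.57 RPKM in controls and 13.2, 10.9, 9.79 and 10.994 RPKM in L-IRSdKO livers. Without the first L-IRSdKO mouse, 11 of 12 male-biased genes fell and 10 of 11 female-biased genes rose. Among IGF system genes Igfbp3, the main serum IGF carrier, rose by 0.70.

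Cell type markers moved in this experiment too. Summed stellate cell markers were 180 to 211 RPKM in controls and 233 to 252 RPKM in L-IRSdKO livers, endothelial markers 97.4 to 122 and 125 to 161 RPKM, Kupffer cell markers 154 to 285 and 269 to 340 RPKM, and cholangiocyte markers 19.7 to 46.2 and 7.87 to 13.9 RPKM. Of these, 3 of 6 stellate, 4 of 6 endothelial and 1 of 6 Kupffer cell markers were called higher and 2 of 4 tested cholangiocyte markers lower. Hepatocyte markers summed to 2722 to 3040 RPKM in controls and 2373 to 2973 RPKM in L-IRSdKO livers, with 1 of 6 called lower. Without the first L-IRSdKO mouse 3 of 6 hepatocyte and 2 of 4 cholangiocyte markers were called lower and 2 of 6 stellate, 4 of 6 endothelial and 0 of 6 Kupffer cell markers higher. Krt19 was the only one of these markers listed at 0 in any library. Their part in the results was not tested.

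**Figure D3:**
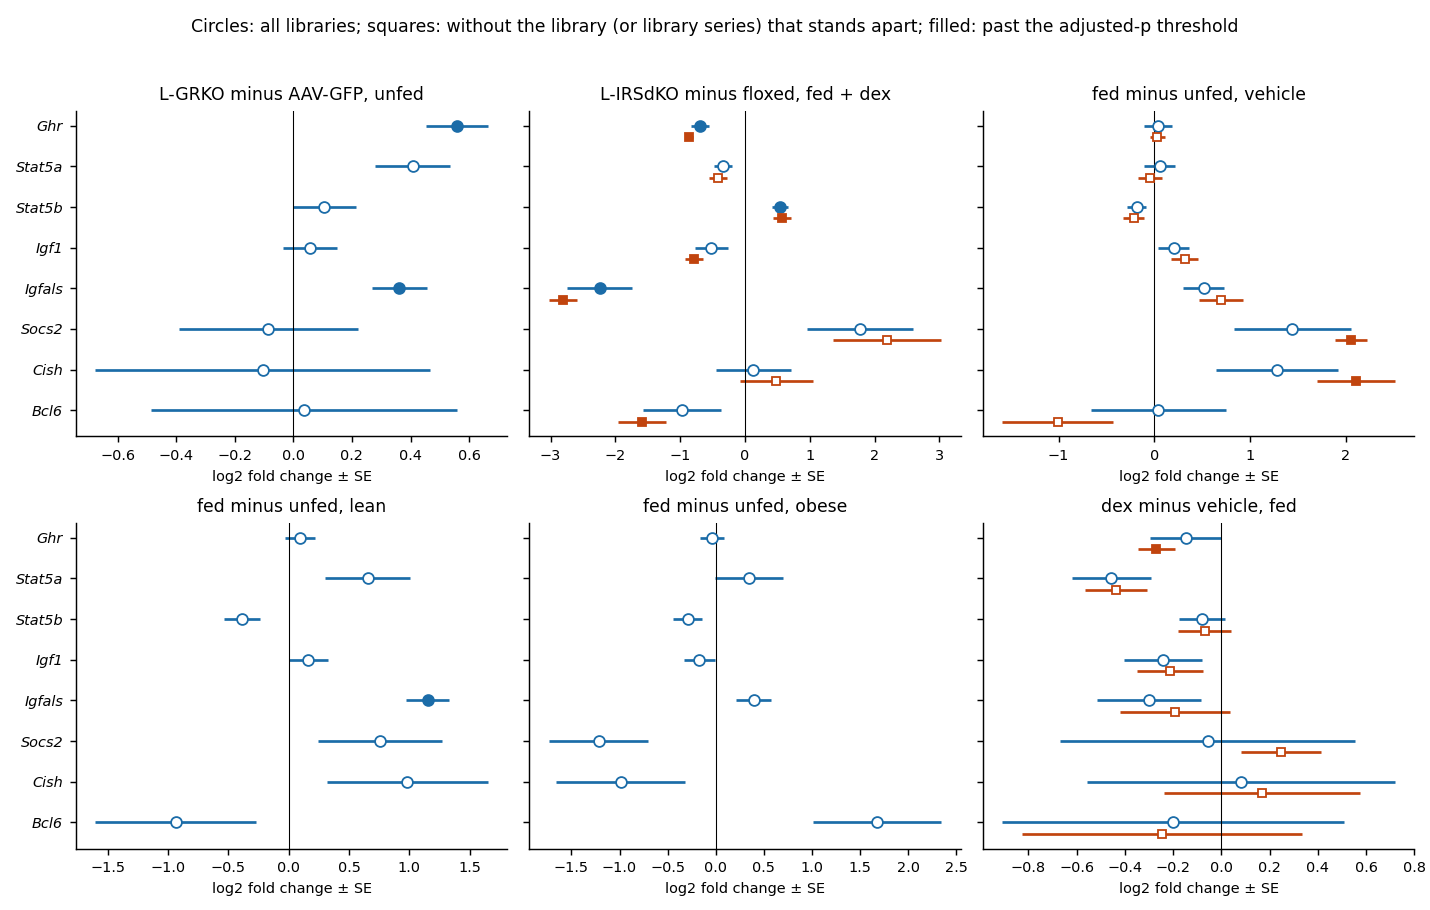
Log2 fold changes with SE from the limma fits (x axis) for the 8 genes in 6 comparisons. Circles use all libraries, squares leave out the first L-IRSdKO mouse or the later library series of the injected mice, and filled symbols pass the adjusted p threshold of the comparison (0.05, or 0.01 for lean and obese). Ghr is filled to the right in L-GRKO and to the left in L-IRSdKO, and Socs2 and Cish are filled for the vehicle meal only without the later series.

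The comparisons of injected mice asked what the meal, dex and S961 did in wild-type liver. The fed vehicle group enters all of them, so they are not independent of one another. With all libraries none of the 8 genes was called for the meal, dex, S961 or dex with S961, where 3.13%, 3.19%, 1.89% and 10.6% of the 11248 genes tested were called at an adjusted p under 0.05. For the meal, Socs2 was 3.22, 2.44, 3.34 and 4.09 RPKM in unfed vehicle livers and 11.7, 14.9, 15.5 and 2.99 RPKM in fed vehicle livers. Cish was 2.85, 2.503, 3.71 and 6.33 RPKM unfed and 10.7, 19.2, 14.7 and 2.49 RPKM fed. In both genes the first 3 fed mice lay above all unfed mice and the fourth, from the later library series, among or below them. Log2 fold changes were 1.44 ± 0.61 (SE, adjusted p = 0.203) for Socs2 and 1.28 ± 0.64 (SE, adjusted p = 0.281) for Cish.

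Without the later series both feedback genes passed for the meal. Socs2 then rose by 2.06 ± 0.17 (SE) on the log2 scale, 4.16-fold, with an adjusted p of 2.8e-05, and Cish rose by 2.11 ± 0.41 (SE), 4.30-fold, with an adjusted p of 0.0104. In that fit 6.38% of all genes were called for the meal. With all mice and a term for the library series, Socs2 alone passed, at an adjusted p of 0.0432, where 9.21% of all genes were called. Igfals was 22.9, 27.8, 33.7 and 43.9 RPKM unfed and 40.2, 41.1, 56.6 and 43.0 RPKM fed, and did not pass (log2 fold change 0.52, adjusted p = 0.196). Kupffer cell markers also differed in this comparison, at a summed 50.8 to 65.1 RPKM unfed and 71.7 to 110 RPKM fed, with 3 of 6 called higher, or 5 of 6 without the later series, and their part in the result was not tested. Of the pathway genes Sirpa, a phosphatase-recruiting membrane protein, rose by 0.71, and Stat2 rose by 0.58. Without the later series none of the 15 tested genes of GH receptor signalling was called, Sirpa included.

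Dex given before the meal left Socs2 at 18.3, 16.3, 15.4 and 1.28 RPKM and Cish at 17.7, 17.0, 14.6 and 2.14 RPKM, with the fourth mouse again low in both. Bcl6 was highest in that mouse, at 5.97, 3.43, 6.58 and 28.7 RPKM. Stat5a was 2.57, 2.47, 2.18 and 3.84 RPKM in fed vehicle and 1.46, 1.46, 2.06 and 2.54 RPKM in dex livers, a log2 fold change of -0.46 ± 0.16 (SE) with an adjusted p of 0.134. That difference passed with a library series term (adjusted p = 0.0157, where 9.74% of all genes were called) and without the fourth dex mouse (0.048). Ghr was 177, 191, 179 and 132 RPKM in fed vehicle and 168, 138, 149 and 153 RPKM in dex livers (log2 fold change -0.15, adjusted p = 0.648), and without the later series it fell by 0.27 ± 0.077 (SE, adjusted p = 0.0495), where 7.29% of all genes were called. In that fit 4 of 6 Kupffer cell and 4 of 6 endothelial markers were also called lower, and over all 4 mice their sums were 71.7 to 110 and 68.3 to 77.1 RPKM in fed vehicle and 44.6 to 73.2 and 53.9 to 69.1 RPKM in dex livers. Their part in the result was not tested. Of 9 female-biased genes Cyp2a4 (log2 fold change 3.98), Cyp2b10 (2.30), Sult1e1 (1.14) and Slco1a4 (1.03) rose with dex, and 2 of 12 male-biased genes, Cyp2d9 and Cyp4a12a, fell. Without the later series 5 of 10 female-biased genes rose and 5 of 12 male-biased genes fell, with list medians of 1.26 and -1.02.

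S961 left Socs2 at 22.8, 15.5, 15.6 and 5.36 RPKM and Cish at 19.7, 6.26, 4.20 and 2.81 RPKM. With dex and S961 together Socs2 was 15.8, 15.3, 20.5 and 12.6 RPKM, Cish 5.23, 8.82, 10.7 and 10.2 RPKM, and Bcl6 10.9, 2.19, 2.63 and 2.42 RPKM. With both agents the listed genes Cyp2b10 (log2 fold change 2.22) and Cebpb (1.11) rose and Foxa1 (-1.41) and Sirpa (-0.80) fell. Kupffer cell markers, which summed to 71.7 to 110 RPKM in fed vehicle livers, summed to 48.2 to 71.5 RPKM with S961 and 56.0 to 66.0 RPKM with both agents. Of the 6, 3 were called lower with S961 and 4 with both agents, or 5 in each without the later series, and their part in these results was not tested. Ghr and Igf1 stayed between 131 and 182 RPKM and between 83.0 and 130 RPKM in these 2 groups. No gene of the whole table passed for the interaction of dex and S961 in limma, where 4.56% had an unadjusted p under 0.05, and for the 8 genes the unadjusted p ranged upward from 0.124 (Igf1).

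In the uninjected NRF mice, with 2 mice per group, none of the 8 genes passed at an adjusted p under 0.01 for time (1.16% of 10904 genes called) or for the meal (0.99%). The 2 comparisons share the ZT14-unfed mice. Stat5a came nearest for the meal, at 0.965 and 1.30 RPKM unfed and 2.25 and 2.02 RPKM fed, a log2 fold change of 0.70 ± 0.16 (SE) with an adjusted p of 0.0481. Bcl6 was 5.89 and 2.05 RPKM at ZT10, 0.294 and 1.01 RPKM at ZT14-unfed and 1.65 and 2.93 RPKM at ZT14-fed, with a log2 fold change from ZT10 of -1.88 ± 0.47 (SE, adjusted p = 0.0517). Socs2 was 9.68 and 6.09 RPKM unfed and 2.82 and 3.76 RPKM fed (log2 fold change -1.12, adjusted p = 0.0611), a fold change of the opposite sign to that in the injected mice, and neither passed with all libraries. Igf1 and Ghr were even, at 47.3 to 60.0 RPKM and 72.5 to 87.5 RPKM over all 6 mice. Among listed genes the male-biased Elovl3 rose by 2.01 from ZT10 to ZT14 without food and was 2.00 lower on the log2 scale with food, and the female-biased Fmo2 rose by 1.32 and was 1.38 lower. Ugt2b38 and Stat2 rose by 0.93 and 0.90 with food.

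In lean mice of the diet experiment Igfals rose with the meal. It was 29.3, 36.2 and 40.2 RPKM in unfed and 85.6, 79.6 and 70.3 RPKM in fed lean livers, without overlap. The log2 fold change was 1.15 ± 0.18 (SE), a fold of 2.22, with an adjusted p of 0.00164. It was the only 1 of the 8 genes called at an adjusted p under 0.01, where 10.2% of 11431 genes were called, and it passed in all 16 alternative fits. In obese mice Igfals was 39.5, 46.7 and 64.9 RPKM unfed and 57.9, 75.5 and 62.4 RPKM fed (log2 fold change 0.39, adjusted p = 0.198). The difference between the meal effects, -0.76 ± 0.25 (SE) on the log2 scale, had an adjusted p of 0.2, so a difference between lean and obese mice was not shown. Among listed genes Cebpb fell by 1.88 and Cebpa rose by 0.77 with the meal in lean mice, and Cebpb was 1.25 lower in obese than in lean unfed livers. Endothelial markers summed to 57.6 to 69.3 RPKM in unfed and 42.3 to 48.9 RPKM in fed lean livers, with 1 of 6 called lower, and their part in the result was not tested.

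The feedback genes and Bcl6 had meal fold changes of opposite sign in lean and obese livers, none of which passed. Unfed and fed values of Bcl6 were, in lean mice, 14.5, 11.983 and 4.97 RPKM against 2.06, 5.76 and 8.60 RPKM, and in obese mice 2.52, 13.9 and 5.01 RPKM against 29.3, 27.7 and 8.85 RPKM. Socs2 was 3.45, 4.18 and 3.76 RPKM unfed and 10.4, 7.67 and 3.77 RPKM fed in lean mice, and 7.55, 1.85 and 11.8 RPKM unfed and 1.80, 3.15 and 1.71 RPKM fed in obese mice. In all of these comparisons the unfed and fed mice overlapped, Cish being 2.31, 1.79 and 3.86 RPKM unfed and 9.76, 5.05 and 3.28 RPKM fed in lean mice, and 9.97, 2.98 and 7.78 RPKM unfed and 1.19, 1.55 and 10.7 RPKM fed in obese mice. The 4 diet comparisons share these groups of mice. The interaction of diet and meal was 2.62 ± 0.94 (SE) for Bcl6 and -1.98 ± 0.73 (SE) for Socs2, with adjusted p of 0.228 and 0.24, where 0.131% of all genes passed. None of the 8 genes passed for the meal in obese mice (1.22% called) or for obese against lean, unfed (0.77%). For obese against lean, fed, no gene of the table passed in limma, where 20% had an unadjusted p under 0.05. Stat5a was 1.41, 6.02 and 4.59 RPKM in unfed obese and 1.52, 2.23 and 2.30 RPKM in unfed lean livers, and did not pass with all mice. It passed only without the first obese mouse, the value below all lean mice, and was then higher by 1.21 ± 0.18 (SE, adjusted p = 0.00385). The share of all genes called in that fit is not given here, so a diet effect on Stat5a was not shown.

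The spread between mice of the same group separated the 8 genes into 2 kinds. In all 5 experiments the within-group SD of Socs2, Cish and Bcl6 lay above that of at least 95% of genes tested. It was 0.42 to 1.42 on the log2 scale for Socs2, 0.73 to 1.07 for Cish and 0.72 to 1.11 for Bcl6, against medians over all genes of 0.12 to 0.23. By contrast Ghr had an SD of 0.09 to 0.23 and Stat5b of 0.07 to 0.20, and Igf1 of 0.09 to 0.43. Igfals had its highest SD, 0.86, in the L-IRSdKO experiment, and Stat5a had 0.50 in the diet experiment. These SDs include the later library series and the first L-IRSdKO mouse. Socs2 in the fourth injected mice lay 0.30 (unfed vehicle), -1.54 (fed vehicle), -2.45 (dex), -1.23 (S961) and -0.32 (dex with S961) from the group mean. Without the later series the SE of the vehicle meal effect fell from 0.61 to 0.17 for Socs2. It fell from 0.64 to 0.41 for Cish and from 0.71 to 0.58 for Bcl6. Part of this spread thus lay with the later libraries.

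**Figure D4:**
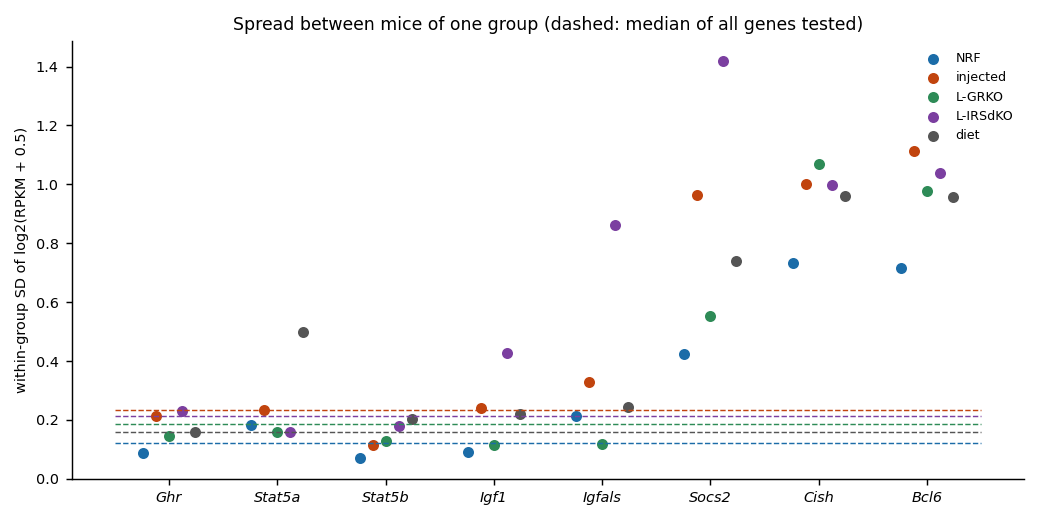
Within-group SD of log2(RPKM + 0.5) (y axis) of the 8 genes in each of the 5 experiments (colored points), with dashed lines at the median SD of all genes tested in each experiment. Socs2, Cish and Bcl6 lie far above the lines throughout, with the highest value 1.42 for Socs2 in the L-IRSdKO experiment. All libraries are included, among them the later library series and the first L-IRSdKO mouse.

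Because these 3 genes varied so much, it was asked whether they varied together from mouse to mouse. Each value was taken as the difference from its group mean, so that no condition entered, and the 28 pairs of the 8 genes were correlated over the 54 libraries with 100000 permutations of mice within groups. Socs2 and Cish rose and fell together (Pearson r = 0.73, Spearman rho = 0.70, permutation p = 2e-05, adjusted over the pairs 0.00028). Bcl6 ran opposite to Cish (r = -0.69, rho = -0.70, permutation p = 1e-05, the smallest possible, adjusted 0.00028) and to Socs2 (r = -0.56, rho = -0.51, permutation p = 0.00016, adjusted 0.00119). Without the 2 libraries farthest from the median of the first gene, the r values were 0.68, -0.62 and -0.53. Within the 5 experiments r ran from 0.38 to 0.92 for Socs2 and Cish, from -0.91 to -0.57 for Cish and Bcl6, and from -0.73 to -0.20 for Socs2 and Bcl6, and these signs did not change in any of them. In the NRF experiment the 2 mice of a group differ from their mean by equal and opposite amounts. Each r within that experiment therefore rests on very few independent values. The 3 pairs also passed without the later library series and without the first L-IRSdKO mouse. Without the later series the r values were weaker, at 0.61, -0.57 and -0.42. Socs2 and Bcl6 then lay at the edge of the threshold, with an adjusted p of 0.0472 in the permutation test. Without the first L-IRSdKO mouse the r values were 0.72, -0.67 and -0.53.

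**Figure D5:**
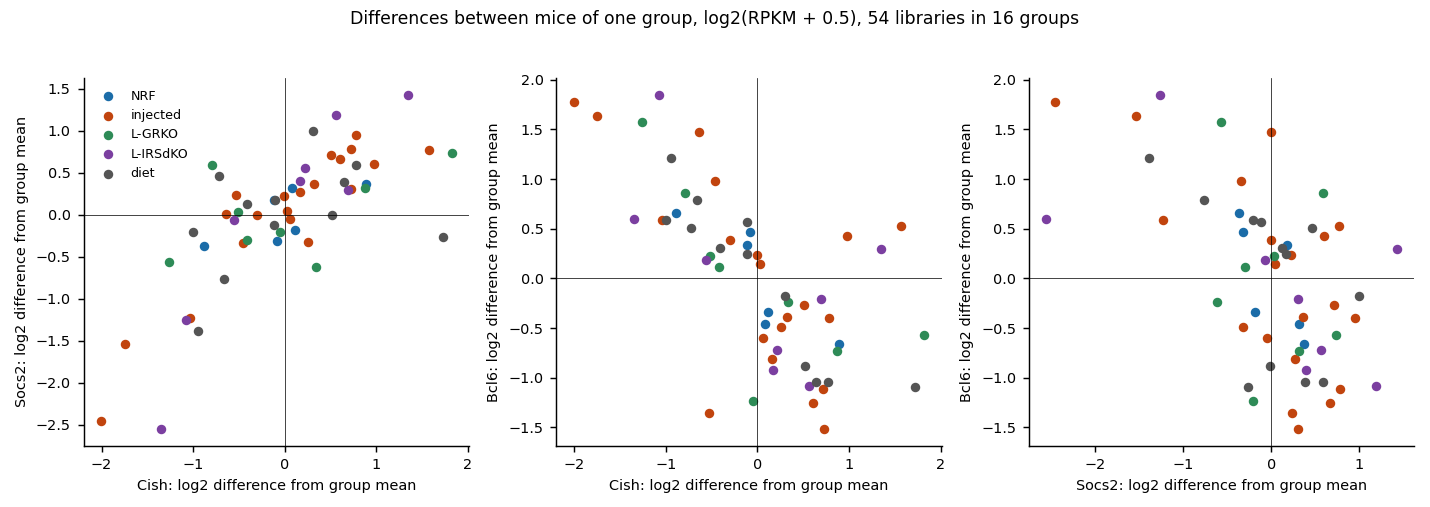
Difference of each of the 54 libraries from its group mean on the log2(RPKM + 0.5) scale for Cish and Socs2 (left), Cish and Bcl6 (middle) and Socs2 and Bcl6 (right), colored by experiment. Mice with high Cish had high Socs2 and low Bcl6 for their group (r = 0.73, -0.69 and -0.56).

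Of the other pairs 6 passed at an adjusted p under 0.05. As a description added after the data had been examined, of all pairs among 10518 genes 0.323% had an r at least as large in size as that of Socs2 and Cish, 0.692% as that of Cish and Bcl6 and 2.97% as that of Socs2 and Bcl6, and for the other 6 pairs this share ran from 1.4% to 8.55%. Stat5a ran with Bcl6 (r = 0.45, rho = 0.45, permutation p = 0.00258, adjusted 0.011) and opposite to Cish (r = -0.47, rho = -0.50, permutation p = 0.00017, adjusted 0.00119). It also ran opposite to Socs2 (r = -0.45, rho = -0.47, permutation p = 0.00757, adjusted 0.0236), although without the later library series that r was -0.30 with an adjusted p of 0.422, and without the first L-IRSdKO mouse -0.43 with an adjusted p of 0.0552. Igf1 and Stat5b ran opposite to each other (r = -0.51, rho = -0.50, permutation p = 0.00062, adjusted 0.00347). Igf1 ran with Ghr (r = 0.53, rho = 0.40, permutation p = 0.00275, adjusted 0.011) and with Igfals (r = 0.63, rho = 0.44, permutation p = 0.0064, adjusted 0.0224). Both of these pairs rested on the first L-IRSdKO mouse, without which r was 0.35 in each and the adjusted p 0.0627 and 0.0987. The pair of Igf1 and Ghr also no longer passed without the later library series, at r = 0.54 and an adjusted p of 0.112. Within the experiments r ran from 0.34 to 0.86 for Stat5a and Bcl6, from -0.71 to -0.46 for Stat5a and Cish, from 0.32 to 0.95 for Igf1 and Ghr and from 0.16 to 0.95 for Igf1 and Igfals. The sign did not hold in every experiment for the other two pairs, with r of 0.01 for Stat5a and Socs2 in the L-GRKO experiment (-0.996 to -0.421 in the others) and of 0.35 for Igf1 and Stat5b in the NRF experiment (-0.59 to -0.28 in the others). Without the 2 farthest libraries r was 0.40 for Stat5a and Bcl6, -0.38 for Stat5a and Cish, -0.46 for Stat5a and Socs2, -0.55 for Igf1 and Stat5b, 0.43 for Igf1 and Ghr and 0.36 for Igf1 and Igfals. Conversely Igf1 and Socs2 (r = 0.62) and Igf1 and Bcl6 (r = -0.49) passed only without that mouse.

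Finally, the genes most alike in pattern to each of the 8 were listed over the 54 libraries, with each gene centred on its experiment and condition effects left in, as a description without a test among 10518 genes. Ghr was nearest to Cd1d1 (r = 0.87) and Aldh1a1 (0.84), Igf1 to Ugt2a3 (0.79) and Zap70 (0.66), and Igfals to Arhgap26 and Dhrs1 (both 0.82). Cish was nearest to Myc (0.79) and Zyg11a (0.77), Socs2 to Adck5 (0.73) and Qtrt2 (0.72), Stat5a to Tbx3 (0.82) and Uck1 (0.81), and Stat5b to Mcc (0.76) and Khnyn (0.74). Bcl6 had no close neighbour, with St3gal3 (0.58) and Atxn7l1 (0.55) nearest. Among all 10518 genes the 1 with the most negative r with Bcl6 was Socs2 (-0.62), an entry singled out after the values were seen.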

How the data were processed

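RNA was measured in 54 livers of 16 groups. The RNA table holds RPKM (reads per kilobase of transcript, scaled to mapped reads), which the authors computed per RefSeq transcript after alignment with STAR to mm9 and counting with HOMER, so the deposited RPKM are not counts. The deposited peak lists give mm9 positions only: GR and FOXO1 peaks were called by the authors with HOMER against input and kept where both replicates agreed, and DHSs were called on pooled reads. Tool versions are not given in the sources used here. The transcript IDs were joined to symbols (35402 of 35707 IDs matched, GRCm38.p6 gene table used for names only), and the ID with the highest mean RPKM was kept. Each experiment was fitted apart with limma 3.58.1 (R 4.3.3, lmFit, contrasts, eBayes with trend) on log2(RPKM + 0.5), keeping genes whose average across its libraries reached 0.5 RPKM, with Benjamini-Hochberg adjustment over all genes tested in 14 comparisons. Calls were made at an adjusted p under 0.05, or 0.01 for NRF and diet, the thresholds used in the study. Fold changes on this scale understate the change of low genes. Single values were also tested by exact permutation, and correlations by permutation within groups (Python 3.11.15, SciPy 1.17.1). Sequences and gene positions came from NCBIM37 (mm9) with GENCODE vM1. The limma fit, the within-group SD and the search for the nearest genes were tested on simulated data. Libraries labelled as single mice were taken as replicates, and no 2 libraries held identical values. Depth per library was 3.7 to 61.7 M reads, estimated from the steps of low values, and counts were not rebuilt. The study lists more reads for the L-IRSdKO libraries than this estimate.

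Alternatives were other pseudocounts and filters, median-ratio and quantile scaling, no variance trend, a replicate block, a library-series term, the other threshold and leaving out each mouse. The fits without the later library series, and the correlations without it or without the first L-IRSdKO mouse, were chosen after seeing the data. The 8 genes and all lists (GH signalling, sex-biased, marker and other lists) were chosen with earlier results of these data known. Named genes were the 8, the targeted genes, the listed genes past the threshold with the largest changes (up to 12 in L-GRKO, up to 4 elsewhere) and the 2 nearest genes of each of the 8. Cux2, Igfbp3, Fkbp5, Cyp2d9 and Cyp4a12a were named outside this rule, after their values were seen, and Alb, Krt19, Xist and Ddx3y for checks of the libraries. Some genes that the rule names are not reported here.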

Additional observations from a re-analysis of the deposited data

Results flagged for a closer look

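A mouse far from the others of its group of 4 was looked for in 72 tests (8 genes in 9 groups). In 12 of them the gap was above Dixon's critical value at the 95% level. For normally distributed values chance gives about 1 in 20. The gaps were taken on RPKM and not on the log2 scale, so this rate need not hold here. Of these, 4 were the first L-IRSdKO mouse, which was highest of its group for Ghr (114.435 RPKM), Igf1 (102.983 RPKM), Igfals (49.146 RPKM) and Bcl6 (27.392 RPKM). Another 4 were injected mice of the later library series: Ghr was lowest with S961 (131.236 RPKM) and with dex and S961 (130.811 RPKM), and with dex Socs2 was lowest (1.279 RPKM) and Bcl6 highest (28.738 RPKM). The remaining 4 were single high or low values. Ghr was highest in the first floxed control of the L-IRSdKO experiment (142.005 RPKM), Igfals was highest in fed vehicle mouse 3 (56.571 RPKM) and lowest in the first L-GRKO mouse (46.815 RPKM), and Bcl6 was highest in the first mouse given dex and S961 (10.894 RPKM).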

How the results depend on the processing

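Of 2142 values of the 8 genes under alternative settings, 2106 kept their side of the threshold, 24 no longer passed, 12 newly passed and no call reversed its direction. Among the 2106 were 113 values that never passed and changed sign. The number of the 8 genes called in L-GRKO was 2, and 1 (Ghr) with no filter, median-ratio scaling, quantile normalization, no variance trend or a replicate block, and 0 at a threshold of 0.01. It ran from 1 to 2 when each mouse was left out. Of all genes tested in L-GRKO, 5.64% were called with median-ratio scaling, 5.98% with quantile normalization, 5.29% with the block and 2.32% at 0.01. In L-IRSdKO the count of 3 became 0 at 0.01 (4.46% of all genes called) and 4 with quantile normalization (17.8%, Stat5a added at an adjusted p of 0.0394). It was 1 to 5 when each mouse was left out. For the vehicle meal it was 1 with a library-series term (9.21% of all genes called) and 2 without the later library series (6.38%). For dex it was 1 with a replicate block (8.61% of all genes called), a library-series term (9.74%) or without the later series (7.29%), and 0 to 1 when each mouse was left out. For obese against lean, unfed, it was 0 to 1 when each mouse was left out, and for the NRF meal 1 at a threshold of 0.05 (6.76% of all genes called). With median-ratio scaling 1 gene rather than 3 separated the L-GRKO groups, against 3 to 4 when each mouse was left out. All 8 genes had a FOXO1 peak within 50 kb and 4 within 20 kb, where 34.62% and 20.47% of all genes did. Stat5a and Stat5b shared their single peak.

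Mice with the same number are not stated to be paired. Same-numbered libraries deviated together (r over 0.1) in 27 of 40 pairs of injected groups, 1 of 4 in L-GRKO, 0 of 4 in L-IRSdKO, 0 of 6 in NRF and 3 of 18 in the diet experiment. With the replicate block the calls were 1 in L-GRKO (Ghr, with Igfals at an adjusted p of 0.0785), 3 in L-IRSdKO, 1 for dex (Stat5a, adjusted p = 0.0202) and 1 for the lean meal, and no other call changed. With the block the share of all genes called moved from 3.13% to 8.25% for the vehicle meal, from 3.19% to 8.61% for dex, from 1.89% to 3.83% for S961, from 10.6% to 18.1% for dex with S961, from 17.4% to 11.1% for L-IRSdKO, from 1.16% to 0.0917% for NRF time, from 0.99% to 0.367% for the NRF meal, from 1.22% to 0.542% for the obese meal, from 0.77% to 0.35% for obese against lean, unfed, and from 0.131% to 0.0262% for the diet interaction. With median-ratio scaling it was 1.92% for the vehicle meal, 6.87% for dex with S961 and 0.688% for NRF time, and with quantile normalization 1.91%, 6.3% and 0.477% for these, 0.587% for the NRF meal and 0.0437% for the diet interaction.

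The median log2 fold change of all genes was 0.12 for the NRF meal, 0.10 for the vehicle meal and -0.14 for dex with S961, and near 0 after median-ratio scaling, which moved the share of calls that were higher from 57.4% to 38.9%, from 81.5% to 46.3% and from 25.4% to 60.5%. In L-GRKO this share moved from 66.7% to 43.9%, in the lean meal from 68.4% to 49.7%, for dex from 31.5% to 61.1%, for S961 from 49.3% to 72.2%, for NRF time from 32.3% to 64.0%, for obese against lean, unfed, from 54.5% to 30.4% and for the diet interaction from 66.7% to 77.8%. Groups of 2 to 4 mice limited the precision, most of all for Socs2, Cish and Bcl6. Depth may also have limited it in the L-IRSdKO experiment, at an estimated 3.7 M to 4.5 M reads per library. The study lists more reads for these libraries.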

Other observations

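Cyp2b9, a cytochrome P450 gene with female-biased expression, was chosen here after its values were seen. Beside the 4 L-IRSdKO livers, where it was 16.4 to 93.2 RPKM, it was highest in obese livers, with a wide spread. It was 0.156, 174 and 11.7 RPKM in unfed obese livers, 7.92, 7.23 and 47.8 RPKM in fed obese livers and 0.592 RPKM or less in the 6 lean livers, and in limma the log2 fold changes of obese against lean were 3.93 unfed (adjusted p = 0.152) and 4.12 fed (adjusted p = 0.172), neither called. In dex livers it was 0.049, 6.76, 2.18 and 0 RPKM, and Cux2 was 0.169, 5.33, 2.92 and 0 RPKM in the same 4 mice, so both genes were highest in mice 2 and 3. For dex the log2 fold changes were 1.498 for Cyp2b9 (adjusted p = 0.205) and 1.34 for Cux2 (adjusted p = 0.210), neither called. Cux2 was also 2.44 RPKM in unfed obese mouse 1, where Cyp2b9 was 0.156 RPKM. In the 4 AAV-GFP livers Cyp2b9 was listed at 0, and in L-GRKO livers it was 1.60, 0.763, 0.212 and 0.272 RPKM. Cyp2b9 was below the filter of the L-GRKO fit and was not tested there.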
